A study of Zea mays with 8 samples.

Results

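NF-YA proteins are the subunits through which the plant transcription factor NF-Y contacts its DNA element, the CCAAT box, and 8 loci of maize that code for such subunits are described here across leaf zone and nitrogen supply. The loci were taken by identifier: 9 listed identifiers matched 8 of the 43110 loci in the deposited table, because XLOC_028573 and GRMZM5G857944 name the same locus, NF-YA13. The family was chosen by the FPKM values of NF-YA13, which were higher at low than at high nitrogen in the elongation zone, so that comparison is given as values without a test. NF-YA4 and NF-YA11 had also been named earlier from their elongation-zone values, in a comparison not recorded here, and their test results are not independent evidence.

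The NF-Y complex forms when an NF-YB and an NF-YC protein pair through histone-like folds and an NF-YA protein then joins them and inserts into the DNA. Plants have a small gene family for each subunit, so different combinations can form. Many plant NF-YA messengers carry a site for the microRNA miR169, which directs their cleavage. In Arabidopsis, nitrogen starvation is known to lower miR169 and to raise several NF-YA messengers.

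RNA came from leaf 6 of B73, an inbred line of maize, whose plants grew in nutrient solution with low nitrogen (LN, 0.04 mM) or high nitrogen (HN, 4 mM). The zones sampled were the elongation zone, where cells lengthen, and the division zone, where they divide. The 4 groups were LN elongation, HN elongation, LN division and HN division, each with 2 libraries. All plants had the same genotype and no transgene is named in the labels, which call the libraries biological replicates without saying how many plants each one pooled. The series asks whether gibberellin synthesis takes part in the slower leaf growth at low nitrogen.

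Levels are FPKM, read fragments scaled by transcript length and library size, as mean ± SD of 2 libraries, and positions are on B73 RefGen_v3. Differences are between mean log2(FPKM + 1) values, which understate changes of low loci. The 8 libraries summed to between 652957 and 1113550 FPKM, and the number of reads is not given in the sources used here. Zone markers were chosen with earlier results of these data known, so they describe the zones and cannot check the labels. All 6 division markers, among them the cyclin cyc3 and the helicase subunits MCM6 and MCM7, were lower in the elongation zone without overlap at both supplies. Of the 24706 loci tested, 36.6% were so at LN and 35.2% at HN. All 6 elongation markers, such as expB6 and xth1, were higher there without overlap, beside 42.9% of loci at LN and 33.9% at HN. In whole tissue, more RNA per cell and more cells of an expressing type cannot be told apart.

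All 8 NF-YA loci were higher at low nitrogen in both zones by their means. The libraries did not overlap at 8 of 8 loci in the elongation zone, beside 35.6% of the 24706 loci tested, and at 7 of 8 in the division zone, beside 27.1%. At 6 of the 8 loci, the lowest of the 4 LN libraries exceeded the highest of the 4 HN libraries, as at 5.08% of tested loci. The first and the last of these counts contain the elongation-zone values that led to the family, and nothing is read from them. Summed over the 8 loci, the level was 95.5 and 95.3 FPKM in the LN elongation libraries against 33.8 and 14.2 FPKM in the HN elongation libraries. The sum was 76.7 FPKM in each LN division library against 30.3 and 31.0 FPKM in the HN division libraries. The summed level was thus 3.98-fold higher at LN in the elongation zone, or 2.82-fold with HN elongation replicate 1 alone as the reference, and 2.505-fold higher at LN in the division zone.

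**Figure D1:**
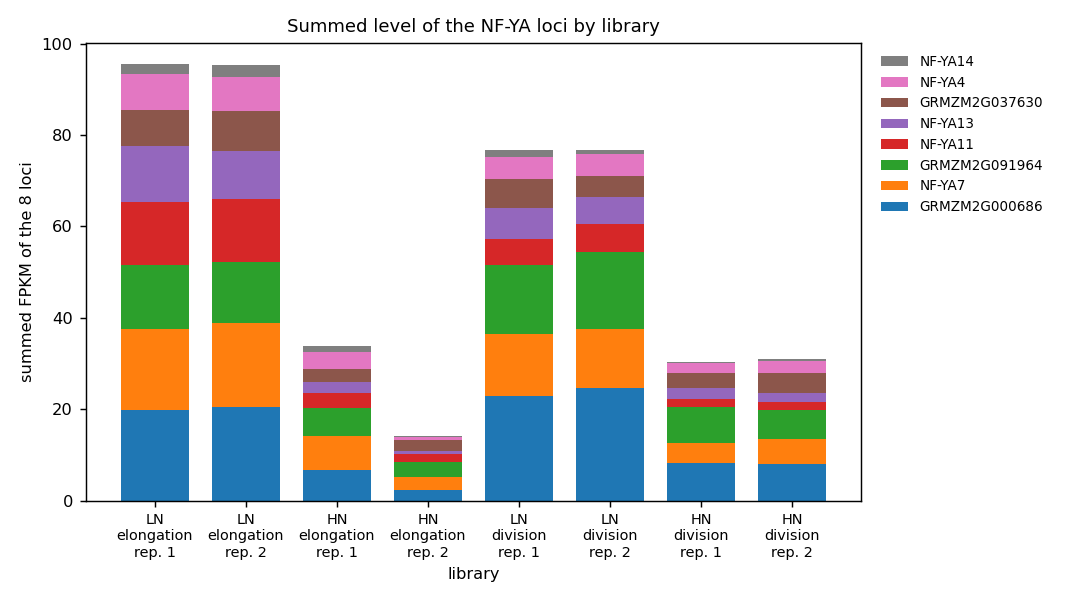
Summed FPKM of the 8 NF-YA loci (vertical axis) in each of the 8 libraries (horizontal axis), with each colour 1 locus. The 4 LN bars stand between 76.7 and 95.5 FPKM and the 4 HN bars between 14.2 and 33.8 FPKM, with HN elongation replicate 2 the lowest.

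NF-YA13 (GRMZM5G857944, chromosome 5, 211715054 to 211720050) had 12.2 and 10.4 FPKM in the LN elongation libraries against 2.504 and 0.749 FPKM in the HN elongation libraries. In the division zone it had 6.65 and 5.99 FPKM at LN against 2.39 and 2.02 FPKM at HN. Both LN pairs lay above all HN libraries, and the LN elongation pair was the highest.

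NF-YA11 (GRMZM2G165488, chromosome 5, 16480475 to 16484941) had 13.7 and 13.8 FPKM in LN elongation against 3.32 and 1.72 FPKM in HN elongation, and 5.75 and 6.22 FPKM in LN division against 1.81 and 1.58 FPKM in HN division. NF-YA4 (GRMZM5G853836, chromosome 1, 174875434 to 174876987) had 7.897 and 7.48 FPKM in LN elongation against 3.65 and 0.648 FPKM in HN elongation, and 4.93 and 4.85 FPKM in LN division against 2.31 and 2.51 FPKM in HN division. Like NF-YA13, each of these loci was highest in LN elongation and second highest in LN division, with no LN library as low as any HN library.

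NF-YA7 (GRMZM2G040349, chromosome 2, 211453392 to 211457855) had 17.7 and 18.4 FPKM in LN elongation against 7.48 and 2.96 FPKM in HN elongation, and 13.7 and 12.99 FPKM in LN division against 4.43 and 5.47 FPKM in HN division. NF-YA14 (GRMZM2G038303, chromosome 7, 165030959 to 165035270) was the lowest member, with 2.16 and 2.59 FPKM in LN elongation against 1.23 and 0.279 FPKM in HN elongation, and 1.403 and 0.925 FPKM in LN division against 0.128 and 0.508 FPKM in HN division. NF-YA7 kept its LN and HN libraries apart across zones, whereas for NF-YA14 the lower LN division library lay below HN elongation replicate 1. NF-YA14 reached the mean of 1 FPKM required for testing in only 2 groups, both at LN, while the other 7 loci reached it in all 4 groups.

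The highest levels in the division zone belonged to a pair of loci without an NF-YA number in the RefSeq gene table. GRMZM2G000686 (chromosome 1, 15805373 to 15808637) had 19.8 and 20.5 FPKM in LN elongation against 6.67 and 2.23 FPKM in HN elongation, and 22.8 and 24.6 FPKM in LN division against 8.24 and 8.02 FPKM in HN division. GRMZM2G091964 (synonym CA2P16, chromosome 1, 263505895 to 263513358) had 14.1 and 13.4 FPKM in LN elongation against 6.02 and 3.18 FPKM in HN elongation, and 15.02 and 16.8 FPKM in LN division against 7.83 and 6.42 FPKM in HN division. These were the 2 loci whose highest mean was in LN division rather than in LN elongation.

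GRMZM2G037630 (chromosome 1, 71582845 to 71595858) shares its assembled locus with a second identifier, GRMZM6G205247, so its values cannot be assigned to either gene alone. It had 7.78 and 8.72 FPKM in LN elongation against 2.88 and 2.42 FPKM in HN elongation, and 6.42 and 4.42 FPKM in LN division against 3.12 and 4.47 FPKM in HN division. It was the only member whose LN and HN division libraries overlapped.

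**Figure D2:**
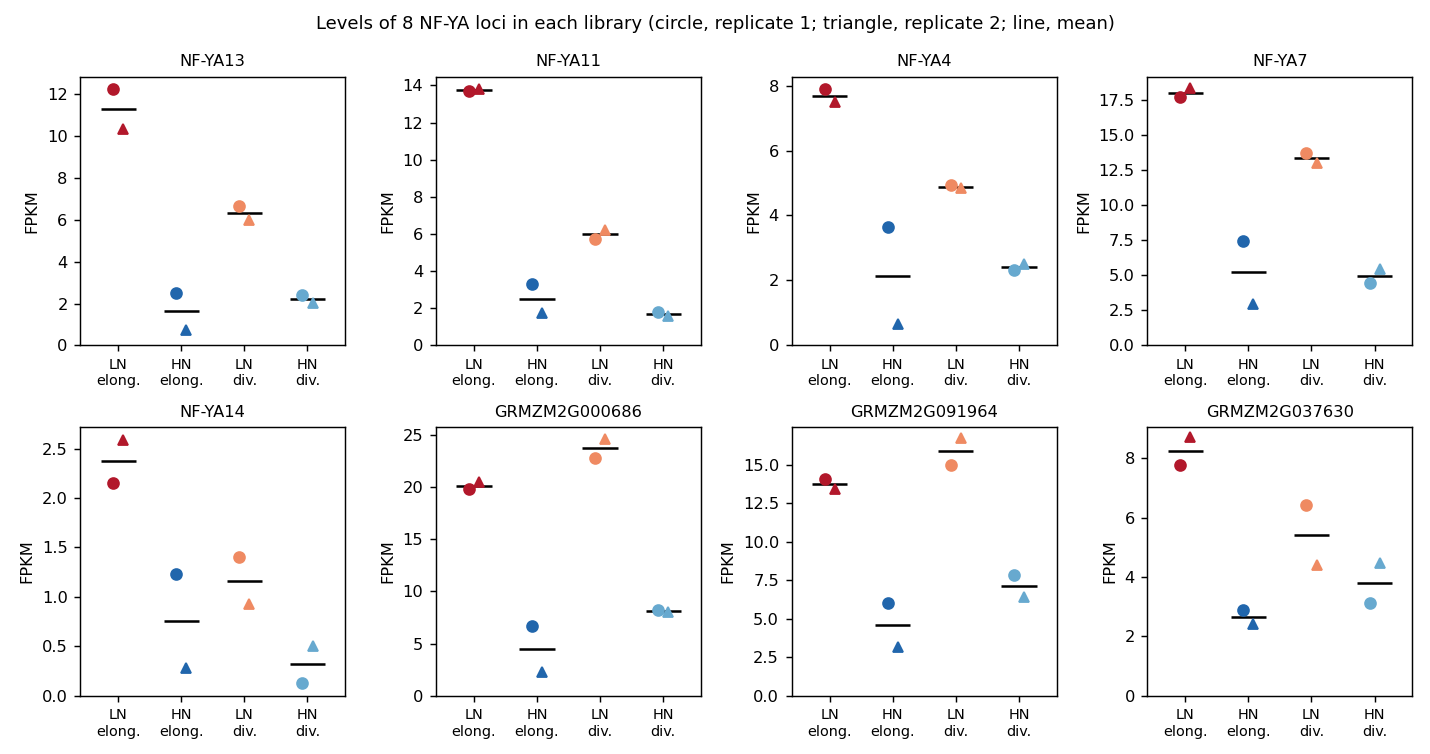
FPKM (vertical axes, each starting at 0) of each NF-YA locus in the 4 groups, with circles for replicate 1, triangles for replicate 2 and lines for group means. Every panel has both LN elongation libraries above both HN elongation libraries, and replicate 2 of HN elongation below replicate 1.

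In the elongation zone, where the comparison was the one that led to NF-YA13, the values are descriptive. NF-YA13 averaged 11.3 ± 1.34 FPKM at LN and 1.63 ± 1.24 FPKM at HN, a 6.95-fold higher mean. NF-YA11 was 5.46-fold higher (13.8 ± 0.0768 against 2.52 ± 1.13 FPKM) and GRMZM2G000686 was 4.53-fold higher (20.1 ± 0.445 against 4.45 ± 3.14 FPKM). The other 5 loci were between 2.99-fold and 3.57-fold higher at LN. The median difference of the 8 loci was 1.68 on the log2 scale, with a range from 0.99 to 2.31, beside a median of 0.07 over all tested loci. All 8 had LN libraries above HN libraries without overlap, as did 35.6% of tested loci; because the same contrast led to the family, nothing is read from that count.

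The size of these elongation-zone differences rested in part on HN elongation replicate 2, in which all 8 loci were lower than in replicate 1, as were 44.5% of tested loci. The median difference between these replicates was -0.90 for the NF-YA loci and 0.05 over all tested loci on the log2 scale. With replicate 1 alone as the HN value, NF-YA13 was 4.51-fold, NF-YA11 4.15-fold, GRMZM2G000686 3.02-fold and NF-YA4 2.104-fold higher at LN, against 15.1-fold, 8.01-fold, 9.05-fold and 11.9-fold with replicate 2 alone. The median of the 8 loci was 1.21 without replicate 2 and 2.33 without replicate 1.

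Markers of mature blade moved with nitrogen as well. All 5, among them the carboxylase PEPC1 and the Rubisco small subunit rbcS, were lower at LN without overlap in both zones, and none was at 0. Their summed level was 206 to 343 FPKM in LN elongation against 1107 to 1531 FPKM in HN elongation, where replicate 2 was the higher. In the division zone it was 22.7 to 31.1 FPKM at LN against 68.3 to 71.1 FPKM at HN, and all 6 elongation markers were lower at LN there, with sums of 15.8 to 16.9 FPKM against 25.9 to 29.5 FPKM. The 6 division markers summed to 276 to 288 FPKM at LN in the division zone, against 199 to 203 FPKM at HN, and 3 of them, cyclin11, GIF1 and MCM7, were higher at LN without overlap and 0 lower. In the elongation zone their sums were 14.4 to 22.0 FPKM at LN and 22.5 to 24.7 FPKM at HN, with 3 higher and 2, MCM6 and MCM7, lower without overlap. The elongation markers summed to 972 to 1001 FPKM at LN there, against 602 to 944 FPKM at HN, with 2 of 6 higher without overlap and 0 lower. None of the division or elongation markers was at 0. Of all tested loci, 27.1% were higher at LN without overlap in the division zone and 35.6% in the elongation zone, while no share for lower is given here. The markers were chosen with earlier results of these data known, so nothing is read from their counts. The part of the marker shifts in the NF-YA values was not tested.

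The division zone gave a nitrogen comparison that shares no library with the one that led to the family. The members were still listed with earlier results of these data known, so their division-zone counts are not independent of that choice. All 8 members had higher means at LN, by a median of 1.13 on the log2 scale and with a range from 0.42 to 1.44, beside a median of -0.01 over all tested loci. At 7 of the 8 the LN and HN libraries did not overlap, against 27.1% of tested loci higher at LN without overlap. NF-YA14 is 1 of these 7 and was tested only through its LN levels; of the 7 loci that reached 1 FPKM in every group, 6 did not overlap. In the fit of all 4 groups, limma called 1 of the 8 loci, against 1.81% of tested loci called higher: NF-YA11 rose to 5.98 ± 0.332 FPKM at LN, against 1.696 ± 0.161 FPKM at HN (3.53-fold, log2 difference 1.37 ± 0.23 SE, adjusted p = 0.0263). Since it is not known which comparison NF-YA11 and NF-YA4 had been named from, this call is not independent of that naming. Of the 6 other loci limma called 0. An unadjusted limma p under 0.05 was found at 4 of them, but no share of all tested loci at that level is given here, so nothing is read from that count.

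GRMZM2G000686 averaged 23.7 ± 1.25 FPKM at LN and 8.13 ± 0.161 FPKM at HN in the division zone (2.92-fold, log2 difference 1.44 ± 0.36 SE, limma adjusted p = 0.0697). NF-YA7 averaged 13.4 ± 0.514 FPKM at LN and 4.95 ± 0.734 FPKM at HN (2.696-fold, adjusted p = 0.0749), and NF-YA13 6.32 ± 0.465 FPKM at LN and 2.204 ± 0.259 FPKM at HN (2.87-fold, adjusted p = 0.0776). GRMZM2G091964 was 2.23-fold higher at LN (15.9 ± 1.22 against 7.12 ± 0.996 FPKM, adjusted p = 0.0605). These 4 loci thus missed the threshold of 0.05 while their libraries stood apart. NF-YA14, NF-YA4 and GRMZM2G037630 had adjusted p values of 0.216, 0.324 and 0.313, with folds of 3.66, 2.03 and 1.43.

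The spread used in that fit is pooled over the 4 groups. For the NF-YA loci the median SD between replicates on the log2 scale was 0.64 in HN elongation, against 0.05 in LN elongation, 0.08 in LN division and 0.15 in HN division. Fitted on the 4 division libraries alone, limma called 6 of the 8 loci higher at LN, against 2.85% of tested loci, with adjusted p = 0.0164 for GRMZM2G000686, 0.0229 for NF-YA7, 0.0256 for NF-YA13, 0.0286 for GRMZM2G091964 and 0.0416 for NF-YA4. Leaving aside NF-YA11 and NF-YA4, these were 4 of 6 loci. The number called was also 6 without HN elongation replicate 1, where 5.28% of tested loci were called higher, and 6 without HN elongation replicate 2, where the share was 5.29%. All calls at the 8 loci were lost when any of the LN division, HN division or LN elongation libraries was left out. Calls over all tested loci fell in those fits as well, so nothing is read from that loss. The median difference of the 8 loci there lay between 1.02 and 1.17 on the log2 scale. NF-YA14 and GRMZM2G037630 were called in none of these fits.

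**Figure D3:**
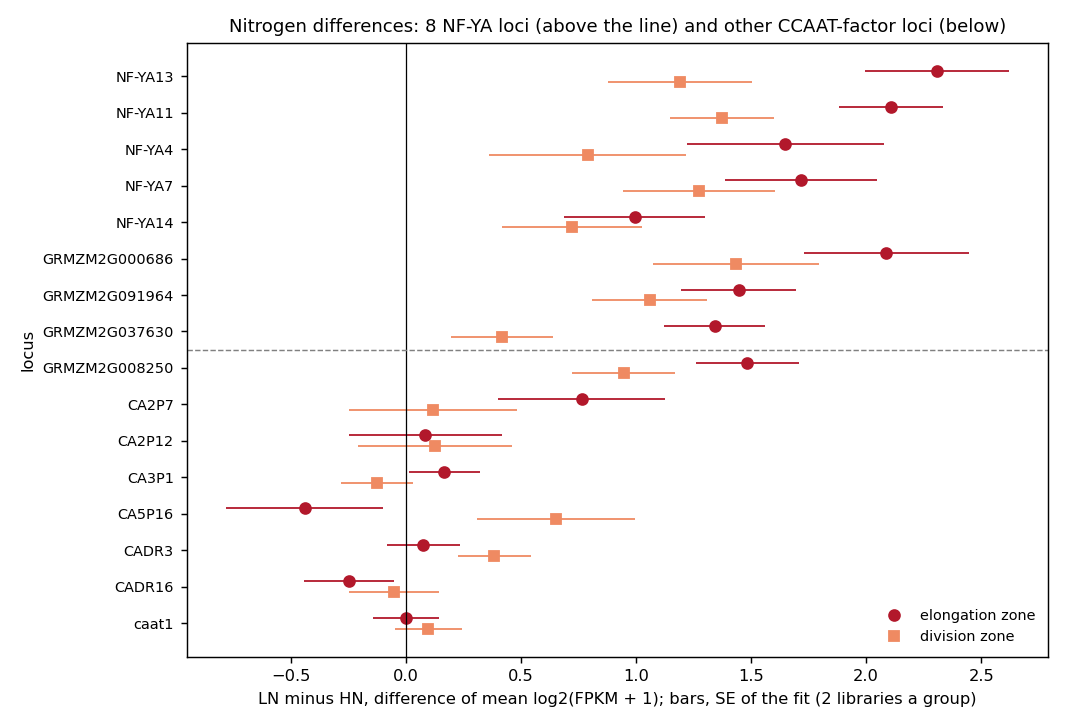
LN minus HN difference of mean log2(FPKM + 1) (horizontal axis) in the elongation zone (circles) and the division zone (squares) for the 8 NF-YA loci above the dashed line and 8 other loci with CCAAT-factor names below it; bars are SEs of the fit. The NF-YA loci lie between 0.42 and 1.44 in the division zone and between 0.99 and 2.31 in the elongation zone, while CA2P12, CA3P1, CADR3, CADR16 and caat1 lie between -0.25 and 0.38 in both zones. Of the other 3, GRMZM2G008250 lies at 1.48 in the elongation and 0.95 in the division zone, CA2P7 at 0.76 and 0.12, and CA5P16 at -0.44 and 0.65.

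On the log2(FPKM + 1) scale the nitrogen difference was larger in the elongation zone than in the division zone at all 8 loci, by a median of 0.69 on the log2 scale and with a range from 0.27 in NF-YA14 to 1.12 in NF-YA13. At NF-YA14 this rested on the pseudocount: its fold of means was 3.14 in the elongation and 3.66 in the division zone, and with a pseudocount of 0.1 the value was 0.06. This contrast contains the elongation-zone comparison and was not tested. It depended on HN elongation replicate 2: without that library the median was 0.07, 6 of 8 loci lay above 0, and NF-YA7 and NF-YA14 turned to -0.11 and -0.13. Without HN elongation replicate 1 the median was 1.04.

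The zone comparison was made at each nitrogen supply, and the difference between the supplies was not tested. At LN, 6 of the 8 loci were higher in the elongation than in the division zone without overlap, and 2, GRMZM2G000686 and GRMZM2G091964, were lower without overlap, beside 42.9% and 36.6% of tested loci. Without the 3 loci that had been named earlier from their values, NF-YA13, NF-YA11 and NF-YA4, 3 of 5 were higher and 2 lower without overlap. NF-YA11 had the largest zone difference at LN, with 13.8 ± 0.0768 FPKM in the elongation zone and 5.98 ± 0.332 FPKM in the division zone, a 2.303-fold higher mean. NF-YA13 was 1.79-fold and NF-YA4 1.57-fold higher in the elongation zone. NF-YA13, NF-YA11 and NF-YA4 are given without a test, since their elongation-zone values had been used to choose or name them.

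The other 5 loci were tested between zones. At LN limma called 0 of 5 in the fit of all groups, where 48.6% of tested loci were called in either direction, with adjusted p from 0.0810 in GRMZM2G037630, 1.52-fold higher in the elongation zone, to 0.637 in GRMZM2G000686. Of the 5, 1 had an unadjusted limma p under 0.05, GRMZM2G037630, again with no share of all tested loci to set beside it. With the LN groups fitted alone limma called 2 of 5, both higher in the elongation zone, against 30.8% of tested loci. These were NF-YA7 (18.05 ± 0.466 FPKM in the elongation zone and 13.4 ± 0.514 FPKM in the division zone, adjusted p = 0.0346) and NF-YA14 (2.37 ± 0.307 and 1.16 ± 0.338 FPKM, adjusted p = 0.0388). The count was also 2 without HN elongation replicate 1 or 2, beside 31.6% and 31.7% of tested loci called higher.

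At HN, 3 of the 8 loci were lower in the elongation zone without overlap, against 35.2% of tested loci, and 0 were higher, against 33.9%. They were GRMZM2G000686 (4.45 ± 3.14 FPKM in the elongation zone and 8.13 ± 0.161 FPKM in the division zone), GRMZM2G091964 (4.603 ± 2.01 and 7.12 ± 0.996 FPKM) and GRMZM2G037630 (2.65 ± 0.327 and 3.796 ± 0.959 FPKM). Of the 5 loci tested, limma called 0, against 41.7% of tested loci called in either direction, and the lowest limma adjusted p was 0.0917 in GRMZM2G000686, where the unadjusted p was also under 0.05. Without HN elongation replicate 1, 3 of 5 were called, all lower in the elongation zone, beside 24.4% of tested loci. Without replicate 2, 1 of 5 was called, higher there, beside 21.8% of tested loci. In both fits HN elongation is 1 library, assumed to vary like the other groups. NF-YA7 was called both times, with a difference of -0.58 without replicate 1 (adjusted p = 0.0252) and of 0.52 without replicate 2 (adjusted p = 0.0417). The direction at HN thus turned with the library left out, and the median of the 8 loci was -0.33 with all libraries, -0.73 without HN elongation replicate 1 and 0.29 without replicate 2.

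**Figure D4:**
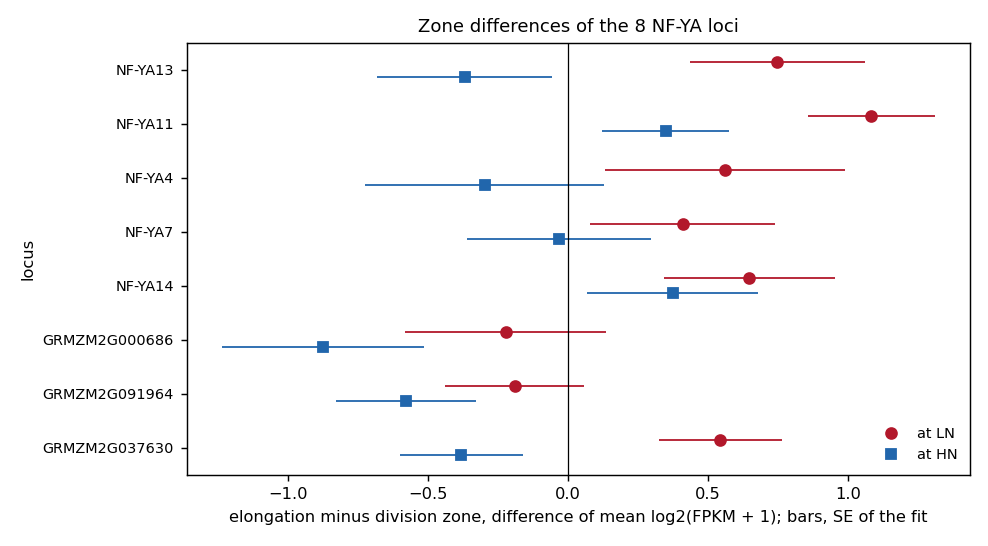
Elongation minus division zone difference of mean log2(FPKM + 1) (horizontal axis) for each NF-YA locus at LN (circles) and HN (squares), with SEs of the fit as bars. At LN 6 loci lie right of 0 and 2 left of it, while at HN 2 lie right and 6 left.

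The make-up of the summed NF-YA level also varied. GRMZM2G000686 held 30.9 ± 1.63% of it in LN division and 21.1 ± 0.497% in LN elongation, against 26.6 ± 0.982% in HN division and 17.7 ± 2.86% in HN elongation. NF-YA11 held 14.5 ± 0.101% in LN elongation against 10.99 ± 1.62% in HN elongation, and 7.80 ± 0.43% in LN division against 5.54 ± 0.621% in HN division. NF-YA13 held 11.9 ± 1.38% in LN elongation against 6.35 ± 1.51% in HN elongation. NF-YA14 held under 3% in every group by its mean. These shares are descriptive and were not tested.

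A search of the RefSeq gene table for names of the NF-YA and CA2P series gave 3 more loci in the deposited table, and they differed in their nitrogen values. NF-YA genes without such a name were not found this way. GRMZM2G008250 (chromosome 1, 174871999 to 174875364) lies next to the NF-YA4 locus, and RefSeq gives both identifiers to the same gene, so it may not be a separate gene. It had 8.57 and 9.64 FPKM in LN elongation against 3.38 and 1.97 FPKM in HN elongation. In the division zone it had 5.41 and 4.17 FPKM at LN against 2.05 and 1.92 FPKM at HN (limma adjusted p = 0.0604). Its elongation-zone values are given without a test, because the locus may be part of NF-YA4, which had been named from such values. CA2P7 and CA2P12 carry the name series of the HAP2 type, the yeast counterpart of NF-YA. CA2P12 (GRMZM2G104396) averaged 4.68 ± 1.65 FPKM in LN elongation against 4.52 ± 2.44 FPKM in HN elongation, and 8.33 ± 0.706 FPKM in LN division against 7.55 ± 0.785 FPKM in HN division, with overlapping libraries in both zones (adjusted p = 0.876 and 0.869). CA2P7 (GRMZM2G126957), which shares its span with another locus, averaged 4.17 ± 0.283 FPKM in LN elongation against 2.22 ± 1.46 FPKM in HN elongation (limma adjusted p = 0.164). Its log2 difference there was 0.76, with 1.25 without HN elongation replicate 1 and 0.28 without replicate 2. In the division zone CA2P7 averaged 4.903 ± 1.87 FPKM at LN against 4.36 ± 1.16 FPKM at HN (adjusted p = 0.892). The 8 loci are therefore not all the NF-YA genes in the table, and the family was listed with its response in view.

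Partner subunits were taken from the same name series, CA3P for the NF-YB type and CA5P for the NF-YC type, which gave 4 loci. Partner genes without such a name were not found this way, so these 4 loci do not stand for all NF-YB and NF-YC genes. CA3P3 was listed at 0 in all 8 libraries and CA5P6 stayed under 0.5 FPKM, so 2 were tested. In limma 0 of 2 were called for nitrogen in either zone, where 22.4% of tested loci were called in the elongation zone and 5.09% in the division zone, and 0 of 2 had an unadjusted p under 0.05. CA3P1 (GRMZM2G303465) averaged 23.5 ± 2.01 FPKM in LN elongation against 20.8 ± 1.62 FPKM in HN elongation (adjusted p = 0.453), and 23.1 ± 2.15 FPKM in LN division against 25.3 ± 3.02 FPKM in HN division (adjusted p = 0.692). CA5P16 (GRMZM2G078691) was the most abundant of these loci, with 52.5 and 47.1 FPKM in LN elongation against 46.3 and 99.1 FPKM in HN elongation (adjusted p = 0.372), and 111 and 147 FPKM in LN division against 85.4 and 76.5 FPKM in HN division (adjusted p = 0.309). Its HN elongation libraries stood more than 2-fold apart, and its elongation-zone difference of -0.44 was -0.98 without replicate 1, where it was called lower beside 20.7% of tested loci, 0.10 without replicate 2 and 0.02 after scaling to equal totals.

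A further 4 loci carry CADR names, among them lec1, an NF-YB gene known from embryos, which was listed at 0 in all libraries. The other 3, CADR3, CADR16 and caat1, gave 0 nitrogen calls in either zone with limma, and 1 of them, CADR3 in the division zone, had an unadjusted p under 0.05, with 24.6 ± 1.69 FPKM at LN and 18.6 ± 0.44 FPKM at HN. At equal totals caat1 was called higher at LN in the elongation zone (limma adjusted p = 0.0386), as were 6736 of all loci. Its log2 difference was 0.45 there, beside a median of 0.43 over all tested loci, and 0.001 without that scaling. Between zones, limma called all 3 of CADR3, CADR16 and caat1 lower in the elongation zone at both supplies. Calls in either direction made up 48.6% of tested loci at LN and 41.7% at HN. Of those calls, 53.9% at LN and 52.9% at HN were higher in the elongation zone, and the rest lower. The CADR3 call at HN was made in only 6 of 15 alternatives. CA5P16 was also called lower in the elongation zone at LN (limma adjusted p = 0.0162). That call was made in 12 of 15 alternatives, with log2 differences from -1.54 to -1.14 over the 15. CADR16 averaged 9.68 ± 0.119 FPKM in LN elongation against 26.9 ± 1.703 FPKM in LN division (limma adjusted p = 0.00142). At HN it averaged 11.9 ± 3.38 FPKM in the elongation zone against 27.97 ± 2.404 FPKM in the division zone (adjusted p = 0.0035). The RefSeq table lists miR169 precursor genes, but 0 of the deposited loci matched them by identifier, so the microRNA was not analysed here.

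Across the 8 libraries, the log2(FPKM + 1) values of the other 7 members had Pearson correlations with NF-YA13 from 0.86 in NF-YA14 to 0.97 in NF-YA7. Of 24706 tested loci, 107, NF-YA13 included, reached 0.95, so the likeness is shared by many loci. All points share the same libraries and the group pattern, and no p is given. Among 96 loci with a RefSeq symbol and at least 5 FPKM in some group, the nearest was mbd123 (0.98), of the methyl-CpG-binding domain family, with 18.1 and 18.3 FPKM in LN elongation against 8.87 and 7.55 FPKM in HN elongation, and 14.6 and 14.6 FPKM in LN division against 9.45 and 10.01 FPKM in HN division. The next were sbp9 (0.83) and sbp7 (0.83), of the SBP-domain transcription factors, PBF (0.83) and FEA4 (0.81). When older names were also admitted, a choice made after the values were seen, mbd123 was followed by Atg4a (0.98), of the autophagy pathway, SET104 (0.97), HAK25 (0.96), of a potassium transporter family, and SGT1 (0.95). Atg4a had 12.7 and 13.5 FPKM in LN elongation against 9.92 and 8.55 FPKM in HN elongation, a narrower range than that of NF-YA13.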

How the data were processed

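The deposited table gives 1 value per assembled locus and library for 8 libraries of maize B73. The authors' values were read as FPKM from the deposited numbers, which are not whole and whose column totals differ; no label states the unit. TopHat2, edgeR and the build B73 RefGen_v3 are named in the submitters' processing notes; which step used which tool, with what version, is not given in the sources used here, nor is the depth or the scaling of the values. Depth per library is thus unknown and no counting interval is given.

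The table's 44070 lines hold 43110 loci, each kept once. Starts were written 1-based, since the lowest start in the table is 0. Gene names are those of RefSeq for assembly Zm-B73-REFERENCE-NAM-5.0, matched by identifier (18441 loci), with none of its coordinates used. No sequence is shown because none was in the sources used here.

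The 24706 loci whose mean reached 1 FPKM in 1 group or more were fitted with limma 3.58.1 in R 4.3.3, with an intensity trend, on log2(FPKM + 1) and 4 group means (4 residual degrees of freedom); p values are two-sided and adjusted by Benjamini-Hochberg over all tested loci, with a threshold of 0.05. P values measure the spread between 2 libraries per group; with a library left out, the lone library of its group is assumed to vary like the other groups. The procedure was checked on simulated data in which each locus had the same spread in every group. That check does not cover groups of unequal spread, as HN elongation and the other groups were here. Members, lists, markers and tests were chosen with earlier results of these data known. Named were every NF-YA locus, partner loci by name series, and the 5 named loci most like NF-YA13; the CA2P and CADR loci were added after their names were seen in the RefSeq table. Alternatives were a pseudocount of 0.1, other filters, 2 scalings, a replicate block, fits of 2 groups and each library left out. The division-zone, zone and partner comparisons were tested; the elongation-zone nitrogen comparison of the members was not. Figures were drawn with matplotlib 3.10.9 in Python 3.11.15.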

Additional observations from a re-analysis of the deposited data

How the results depend on the processing

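The number of NF-YA loci called for nitrogen in the division zone was 1, and 6 with only the 2 division groups fitted; leaving out each library in turn gave 0 to 6. Between zones it was 0 at LN and HN, with 2 at LN when only those groups were fitted, and 0 to 2 at LN and 0 to 3 at HN when each library was left out. The number of NF-YB and NF-YC loci called in the elongation zone was 0, and 0 to 1 with each library left out. With the replicate block 1 NF-YA locus was called in the division zone, where 159 of all tested loci were called higher, and 0 between zones. Calls over all loci moved with these settings too, so nothing about the NF-YA or partner loci is read from these counts. Replicate numbers do not pair the libraries in the labels, and same-numbered deviations had correlations of -0.19 between LN and HN in the division zone and -0.04 in the elongation zone. The larger difference of NF-YA7 in the elongation than the division zone (0.44) became -0.11 without HN elongation replicate 2 and 0.99 without replicate 1.

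The number of calls over all loci also moved. In the division zone 1257 were called, against 506 with the replicate block, 1977 with the 2 groups alone, 2162 at equal totals, and 63 to 3560 with each library left out. In the elongation zone 5531 were called, against 42 with the 2 groups alone, 8682 at equal totals, and 516 to 10197 with each library left out. Between zones at HN 10308 were called, against 6714 with the 2 groups alone. Equal totals moved the median of all loci to 0.14 in the division zone, 0.43 in the elongation zone and -0.22 between zones at HN, and made 62.2%, 77.6% and 40.8% of calls higher in place of 35.6%, 44.1% and 52.9%; median-ratio scaling made 29.9% of elongation-zone calls higher. The NF-YA medians at equal totals were 1.304 and 2.01 in the division and elongation zones. The cause of these shifts was not tested.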
